A study of Mus musculus with 12 samples.

Results

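Peroxisomes are small organelles that take up folded proteins from the cytosol, shorten very long, branched and unsaturated fatty acids, build the first bonds of ether lipids and break down the hydrogen peroxide that this oxidation releases. Their proteins fall into a few classes. Peroxins build the membrane and import the matrix enzymes, transporters bring in acyl-CoA esters and cofactors, and the matrix enzymes carry out beta-oxidation, alpha-oxidation and the start of plasmalogen synthesis. In brain, loss of these genes is known for defects of neuronal migration and of myelin, and plasmalogens are abundant membrane lipids there. FAF2 (also called UBXD8) is a membrane adaptor that recruits p97/VCP to the ER and to lipid droplets, and its own insertion into the ER membrane is known to need PEX19 and PEX3.

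The 35 genes described here were taken by symbol from the deposited table of 57010 genes, and all 35 were found. They are 13 peroxins, 12 enzymes of beta-oxidation, 4 membrane transporters, 3 genes of ether lipid synthesis, and 3 genes of alpha-oxidation and peroxide breakdown. Their transcripts were measured by bulk RNA-Seq in 12 libraries of NE-4C cells, a neural progenitor line from the brain vesicles of early mouse embryos that lacked p53, a background that WT and KO cells share. WT cells and a Faf2 KO line, made with CRISPR/Cas9 guides that remove exon 4 of Faf2, were collected without induction (WT NO and KO NO, day 0) or on day 3 after 24 h in 1 µM all-trans retinoic acid (WT RA and KO RA). Each of the 4 groups had 3 libraries, from independent passages. KO lines were expanded from picked colonies and the labels show no other KO line, so that the genotype and the line cannot be told apart. In the same way RA and the day of collection cannot be told apart.

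The library totals were 17370049 to 30738694 estimated counts. Levels are given as CPM, counts scaled to a common library total with TMM factors, and because the deposited values are already corrected for gene length, levels of different genes can be set side by side. Neural progenitor markers were present in all 4 groups (summed level of Nes, Sox2, Pax6, Otx2 and Cdh2 169 to 324 CPM), as were the pluripotency markers Pou5f1, Nanog and Dppa5a (with Zfp42 at the floor of 3 counts per library, 1060 to 2870 CPM). The sum does not show single markers. Between KO NO and WT NO edgeR called 1 of the 5 progenitor markers lower and 0 higher (all genes 0.351% and 0.788%). Between KO RA and WT RA it called 1 lower and 0 higher (all genes 0.358% and 0.885%). Without replicate 3 of KO RA these were 1 and 2 (all genes 5.44% and 4.42%). Of 5 astroglial markers (summed level 8.78 to 18.6 CPM), Aqp4 and S100b were at the floor in every group and Slc1a3 was at 7.47 to 16.3 CPM in every library. Neuronal markers were at 70.2 to 110 CPM without RA and 140 to 205 CPM with RA. Mesenchymal markers were at 2.66 to 34.9 CPM in WT NO and 4.47 to 6.12 CPM in KO NO. With RA they were at 38.6 to 107 CPM in WT cells and 115 to 243 CPM in KO cells, without overlap. Endothelial markers were at 0.563 to 2.81 CPM in WT NO and 1.07 to 2.01 CPM in KO NO. Their levels with RA were 1.29 to 2.23 CPM in WT cells and 4.16 to 12.6 CPM in KO cells, again without overlap. The part of these differences in cell make-up, with RA and between genotypes, in the results below was not tested. In bulk RNA a smaller number of cells of a type cannot be told apart from less RNA per cell. Faf2 itself had 36.0 to 50 CPM in WT NO and 21.0 to 25.4 CPM in KO NO, a log2 difference of -0.87 (SE 0.27, edgeR adjusted p = 0.179), and after RA 35.1 to 49.1 CPM in WT RA, 34.3 to 36.1 CPM in replicates 1 and 2 of KO RA and 18.7 CPM in replicate 3. KO RA and WT RA overlapped for Faf2 (log2 difference -0.45, SE 0.27, edgeR adjusted p = 0.395, and -0.21, adjusted p = 0.489, without replicate 3 of KO RA). These counts take in all exons and do not check the loss of exon 4. The authors reported that deletion from PCR and Sanger sequencing, and significantly lower Faf2 mRNA in KO cells. They also reported loss of FAF2 protein by western blot and immunofluorescence. Replicate 3 of KO RA stood apart, with a TMM factor of 0.394 against 0.872 to 1.28 in the other libraries and 62.5% of its counts in its 100 highest genes against 37.1% to 50.4%. edgeR tests that involve KO RA are therefore given with and without this library. The fit shares its estimate of the spread over all 12 libraries, so leaving this library out also changed tests without KO RA. For KO NO against WT NO, edgeR called 0.788% of all genes higher and 0.351% lower with it, and 4.43% and 4.35% without it. Tests without KO RA, that of Faf2 among them, are from all 12 libraries unless another fit is named. A missed threshold there does not show that levels were equal. Replicate 3 of WT NO also differed from its group, with 70.3% and 70.8% of genes differing from replicates 2 and 1 beyond counting noise, against 44.3% between those replicates, and the calls that involve WT NO are given without it as well.

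To show the regulatory sequence of genes on which the results turn, the promoters of Phyh, which differed between genotypes, of Eci2, which differed with RA in KO cells, and of catalase are printed 5′ to 3′ on the strand of the gene. Each covers 250 bases before and 50 after the start of transcription in RefSeq (GRCm38.p6, at chr2:4918746-4919045 on the plus strand, chr13:34994095-34994394 on the minus strand and chr2:103485104-103485403 on the minus strand). Capitals mark AGGTCA, the core hexamer that nuclear receptors such as PPAR and RXR recognise, the CCAAT box and the GC box GGGCGG, each on either strand.
Phyh: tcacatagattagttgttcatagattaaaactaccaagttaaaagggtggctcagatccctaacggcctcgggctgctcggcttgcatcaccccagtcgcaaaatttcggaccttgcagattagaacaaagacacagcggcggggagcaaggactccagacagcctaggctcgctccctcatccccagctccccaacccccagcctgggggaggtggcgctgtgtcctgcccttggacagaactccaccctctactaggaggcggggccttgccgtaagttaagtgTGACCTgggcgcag
Eci2: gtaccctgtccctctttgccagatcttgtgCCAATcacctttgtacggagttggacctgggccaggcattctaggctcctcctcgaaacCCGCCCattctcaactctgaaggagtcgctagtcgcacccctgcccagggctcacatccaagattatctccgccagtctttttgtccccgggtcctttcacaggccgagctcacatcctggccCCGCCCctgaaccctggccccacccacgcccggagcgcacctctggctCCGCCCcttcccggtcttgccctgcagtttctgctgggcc
Cat: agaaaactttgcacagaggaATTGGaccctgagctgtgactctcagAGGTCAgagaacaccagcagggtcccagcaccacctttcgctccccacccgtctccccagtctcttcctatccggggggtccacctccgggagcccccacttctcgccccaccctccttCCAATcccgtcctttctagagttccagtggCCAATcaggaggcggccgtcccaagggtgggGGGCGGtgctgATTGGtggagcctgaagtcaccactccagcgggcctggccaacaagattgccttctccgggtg

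RefSeq promoters were found for 29 of the 35 genes, 34 promoters in all. AGGTCA stood in 4 of the 34 (11.8%), those of Phyh, Cat, Scp2 and Pex11g, against 16.3% of all 32851 promoters of this length. The direct repeat of AGGTCA with a spacer of 1 base between the copies (DR1), to which PPAR and RXR bind as a pair, was in none of the 34 and in 0.0396% of all promoters. GGGCGG was in 24 of the 34 (70.6%, all promoters 35.7%), CCAAT in 15 (44.1%, all promoters 37.4%), the E-box CACGTG in that of Gnpat alone (2.94%, all promoters 7.15%), and the core of the antioxidant element, TGACNNNGC, in 6 (17.6%, all promoters 12.4%). Both strands were searched, and TGACNNNGC can overlap AGGTCA. A match is a description of the letters only.

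In WT NO the 35 genes had a median level of 11.0 CPM, against 7.5 CPM over the 16502 genes tested. The genes of ether lipid synthesis were among the highest. Gnpat, whose product begins ether lipid synthesis, had 64.2 ± 14.3 CPM (SD, n = 3), Far1, which supplies the fatty alcohol, had 35.3 ± 2.88 CPM and Agps, which forms the ether bond, had 33.1 ± 5.93 CPM. Catalase (52.3 ± 0.967 CPM), the docking peroxin Pex14 (42.0 ± 2.95 CPM) and the sterol carrier and thiolase gene Scp2 (39.2 ± 0.578 CPM) came next after Gnpat. The ranges of Gnpat and catalase overlapped, as did those of Pex14 and Scp2. Far1 and Agps overlapped in their ranges, so that their order is not given by these libraries. At the other end stood Acox2, an oxidase of branched-chain and bile acid intermediates, with 0 to 3 counts in each of the 12 libraries (at most 0.0916 CPM). Acox2 failed the filter on low counts, and the other 34 genes were tested. Ehhadh (0.324 ± 0.439 CPM), Abcd2 (0.615 ± 0.476 CPM) and Pex11g (0.642 ± 0.618 CPM) were also low, and their ranges overlapped. The heat map of levels by library shows all 35 genes.

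**Figure D1:**
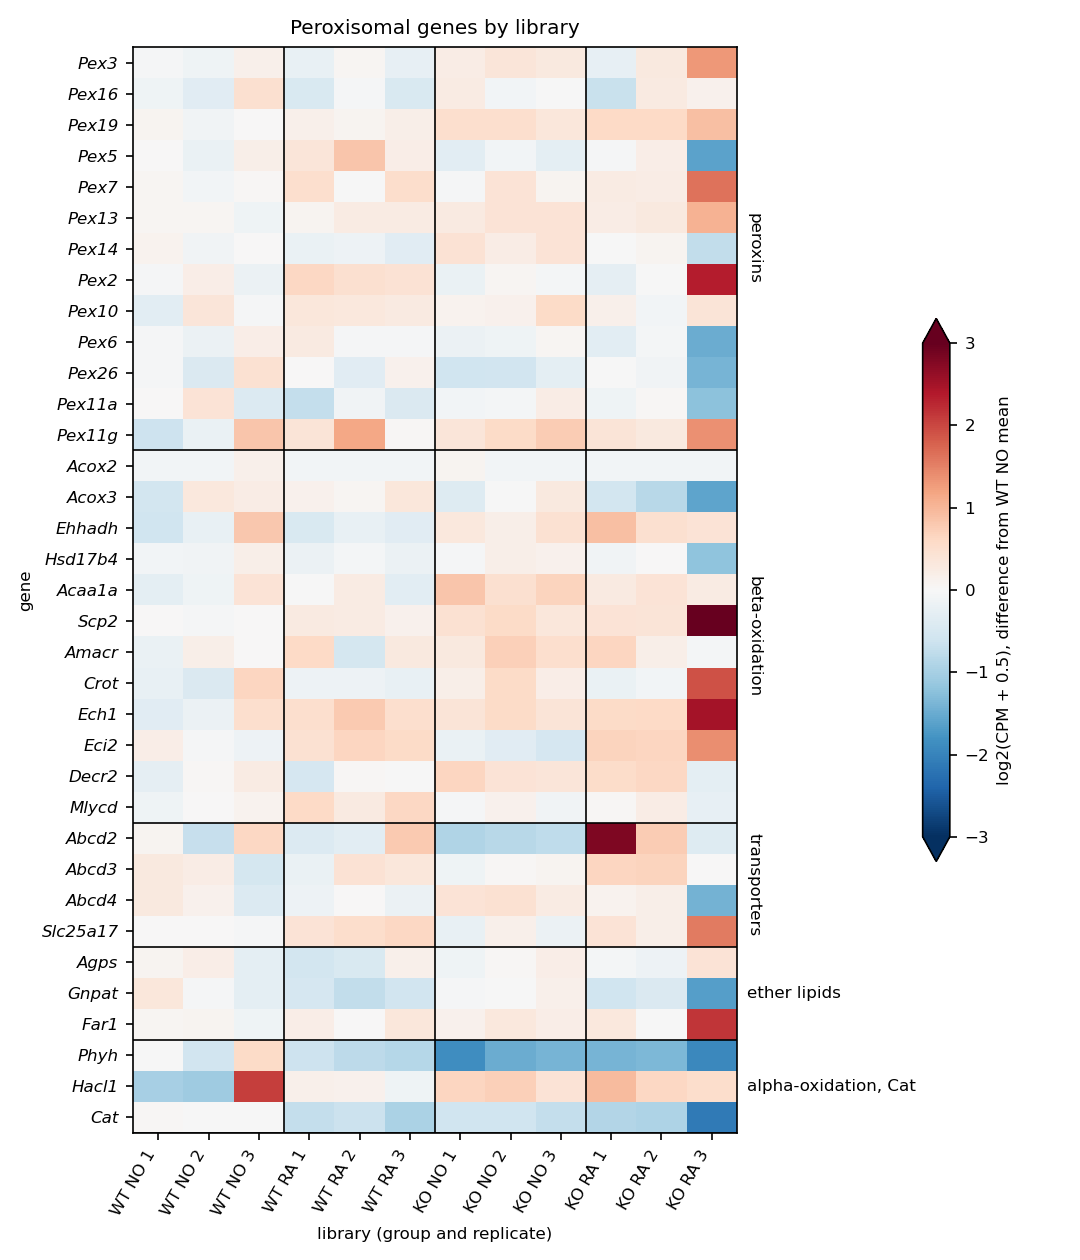
Level of the 35 peroxisomal genes (rows, by role) in each library (columns, group and replicate), as log2(CPM + 0.5) minus the mean of the 3 WT NO libraries, with the colour scale cut at -3 and 3. Phyh and Cat are lower than the WT NO mean in every KO library, and replicate 3 of KO RA differs from replicates 1 and 2 in many rows in either direction.

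Between KO NO and WT NO the difference that passed the test was that of Phyh, phytanoyl-CoA 2-hydroxylase, which begins the alpha-oxidation of the branched-chain phytanic acid (ENSMUSG00000026664, chromosome 2, 4923653 to 4950446 in GRCm39, plus strand). Phyh had 29.0, 19.6 and 44.1 CPM in WT NO but 7.70, 10.1 and 10.9 CPM in KO NO. All 3 KO NO libraries lay below the lowest WT NO library. The log2 fold change was -1.69 (SE 0.30), a 3.23-fold lower level, with an adjusted p of 0.0262 by edgeR's quasi-likelihood test over all genes. It was the only one of 34 genes called lower at an adjusted p under 0.05, and the percentage of all genes tested that were called lower was 0.351%. None was called higher, against 0.788% of all genes. At an unadjusted p under 0.05, the counts were 2 of the 34 higher (all genes 5.81%) and 3 lower (all genes 6.37%). DESeq2 on all libraries called 0 higher (all genes 3.13%) and 1 lower (all genes 3.02%), and limma-voom with sample weights called 11 higher (all genes 10.9%) and 3 lower (all genes 10.8%). When replicate 3 of WT NO was left out, edgeR called Hacl1 higher (all genes 0.97%) and Phyh lower (all genes 0.348%). Leaving out replicate 3 of KO RA, edgeR called Pex19 and Scp2 higher (all genes 4.43%) and Phyh and Cat lower (all genes 4.35%).

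The Phyh call depended on the libraries in the fit. It held without replicate 2 or 3 of WT NO (adjusted p = 0.0273 and 0.0384) and without any of the KO RA libraries (0.0334, 0.0329 and 0.0049 for replicates 1, 2 and 3). It missed the threshold without replicate 1 of WT NO (adjusted p = 0.0763), without replicate 1, 2 or 3 of KO NO (0.138, 0.124 and 0.0915) and, by little, without replicate 1, 2 or 3 of WT RA (0.0508, 0.0504 and 0.0552). The log2 fold change lay between -1.93 and -1.34 in these fits. A processed pseudogene, Gm13194, overlaps exons of Phyh on the same strand, and reads of the pair may have been divided by the quantification.

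Phyh was also low in KO cells after RA. It had 18.9, 16.8 and 16.1 CPM in WT RA and 10.8, 11.2 and 7.33 CPM in KO RA, again with no overlap. The log2 fold change of KO RA against WT RA was -0.81 (SE 0.30, edgeR adjusted p = 0.212), and -0.65 without replicate 3 of KO RA (adjusted p = 0.182). In WT cells Phyh was lower with RA in all libraries (log2 fold change -0.84, SE 0.30, edgeR adjusted p = 0.264), whereas in KO cells the difference with RA was 0.04 (SE 0.30, adjusted p = 0.945), or 0.19 without replicate 3 of KO RA (adjusted p = 0.701). Without replicate 3 of WT NO, which had the highest Phyh level, the WT difference with RA was -0.49 (edgeR adjusted p = 0.452). The RA response of Phyh did not differ between KO and WT past the threshold (interaction 0.88, SE 0.42, edgeR adjusted p = 0.601, and 1.03, adjusted p = 0.181, without replicate 3 of KO RA). The comparisons share libraries, so these values are not independent of each other.

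Catalase, which breaks down hydrogen peroxide in the peroxisome matrix, had a narrow range in WT NO and lower levels in every other group (chromosome 2, 103284194 to 103316185, minus strand). It had 53.4, 52.0 and 51.6 CPM in WT NO and 34.2, 34.6 and 31.8 CPM in KO NO. In WT RA it had 31.6, 33.4 and 26.8 CPM, and in KO RA 28.1, 27.5 and 11.6 CPM. No library of the other 3 groups reached the WT NO range. On the log2 scale the difference was -0.64 for KO NO against WT NO (SE 0.29, edgeR adjusted p = 0.398) and -0.77 for WT RA against WT NO (SE 0.29, adjusted p = 0.287). Neither passed the threshold with all 12 libraries. When replicate 3 of KO RA was left out, catalase fell in KO NO against WT NO (log2 fold change -0.63, adjusted p = 0.0069) and in WT RA against WT NO (-0.77, adjusted p = 0.00333). KO RA against KO NO gave -0.58 (SE 0.29, edgeR adjusted p = 0.229), and -0.28 without that library (adjusted p = 0.139).

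Hacl1, the lyase that follows PHYH in alpha-oxidation, is given because its WT NO value came from 1 library. It had 0.775 and 0.702 CPM in replicates 1 and 2 of WT NO and 10.1 CPM in replicate 3. In the other groups it had 1.82 to 2.31 CPM in WT RA, 2.85 to 3.67 CPM in KO NO and 3.17 to 4.42 CPM in KO RA. KO RA lay above WT RA without overlap (all genes 9.97%). Every KO library lay above every WT library except replicate 3 of WT NO. The difference of Hacl1 in KO NO from WT NO was -0.22 (SE 0.79, edgeR adjusted p = 0.978). Without replicate 3 of WT NO, Hacl1 was called higher in KO NO (log2 fold change 2.17, edgeR adjusted p = 0.0131). The same-strand gene Gm49387 overlaps exons of Hacl1. Hacl1 was chosen after its values were seen.

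edgeR called none of the 13 peroxins in any of the 5 comparisons with all 12 libraries, where 0.0% to 3.89% of all genes were called in a direction. Other tools did call some. limma-voom called Pex11g, Pex13, Pex14 and Pex19 higher in KO NO than in WT NO (all genes 10.9%), Pex19 higher and Pex2 lower in KO RA than in WT RA (all genes 9.79% and 8.31%), and Pex2 higher in WT RA than in WT NO (all genes 10.8%). DESeq2 called Pex19 higher in KO RA than in WT RA (all genes 5.02%) and Pex14 lower in KO RA than in KO NO (all genes 6.01%). By an unadjusted p under 0.05 in edgeR, 1 peroxin was higher (all genes 5.81%) and 0 lower (all genes 6.37%) for KO NO against WT NO. With RA, KO against WT gave 2 higher (all genes 10.9%) and 0 lower (all genes 6.67%), and 2 and 1 without replicate 3 of KO RA (all genes 13.0% and 13.4%). Within KO cells, RA against NO gave 1 higher (all genes 15.8%) and 1 lower (all genes 9.42%), and 0 and 1 without that library (all genes 15.4% and 15.5%), and for WT RA against WT NO 0 and 0 (all genes 6.76% and 5.79%). Between KO NO and WT NO their median difference was 0.17 on the log2 scale, against -0.02 over all genes. Pex19, the receptor that carries membrane proteins to the peroxisome and helps to insert FAF2 into the ER (chromosome 1, 171954285 to 171967307, plus strand), had the smallest p of the peroxins between genotypes. It had 30.4, 26.5 and 28.9 CPM in WT NO and 31.9, 30.1 and 32.2 CPM in WT RA. Among KO libraries the levels were 40.6, 40.4 and 36.1 CPM without RA and 43.5, 43.3 and 53.4 CPM with RA. Every KO library lay above every WT library. The genotype difference was 0.45 on the log2 scale without RA (SE 0.17, edgeR adjusted p = 0.304) and 0.57 with RA (SE 0.17, adjusted p = 0.136). In the fit without replicate 3 of KO RA, Pex19 rose in both comparisons (0.46, adjusted p = 0.0217, and 0.46, adjusted p = 0.0289).

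Pex14, which with PEX13 forms the docking site for cargo receptors, had 44.9, 39.0 and 42.0 CPM in WT NO and 57.2, 49.1 and 56.1 CPM in KO NO. The KO NO libraries lay above those of WT NO, with a log2 fold change of 0.37 (SE 0.22, edgeR adjusted p = 0.591). With RA it had 36.2, 37.6 and 33.1 CPM in WT cells and 41.4, 44.6 and 25.1 CPM in KO cells. The RA groups lay below the NO groups of the same genotype. For KO RA against KO NO the log2 fold change was -0.55 (SE 0.22, edgeR adjusted p = 0.165), and -0.34 without replicate 3 (adjusted p = 0.0801).

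Of the other peroxins, Pex3, the membrane anchor for PEX19, and Pex13 also lay higher in every KO NO library than in every WT NO library (log2 fold changes 0.31 and 0.37, edgeR adjusted p = 0.845 and 0.615). The cargo receptor gene Pex5 and Pex6, an ATPase that pulls the receptors back out, lay lower in KO RA than in WT RA (log2 fold changes -0.80 and -0.60, edgeR adjusted p = 0.308 and 0.358), each with its lowest value in replicate 3. Without that library the values were -0.43 and -0.28 (adjusted p = 0.219 and 0.38). Pex6 lies on chromosome 17, whose 794 genes tested had a median of -0.46 for KO RA against WT RA with all libraries. The part of the chromosome in the Pex6 values was not tested. Pex2, a ubiquitin ligase that marks the receptors for recycling, had 83.6 CPM in replicate 3 of KO RA against 13.0 and 15.7 CPM in replicates 1 and 2. With that library Pex2 was 0.71 higher on the log2 scale in KO RA than in WT RA (SE 0.56, edgeR adjusted p = 0.534), and without it the difference turned and was -0.67 (adjusted p = 0.0287).

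Pex16, Pex7, Pex10, Pex26, Pex11a and Pex11g each overlapped between KO NO and WT NO. Pex16, which recruits PEX3 to the membrane, ran from 6.43 to 11.8 CPM in WT NO and from 7.85 to 9.96 CPM in KO NO. Pex7, the import receptor that carries PHYH, AGPS and the thiolase, ran from 10.7 to 11.9 CPM in WT NO and from 11.1 to 15.3 CPM in KO NO, and reached 36.3 CPM in replicate 3 of KO RA against 13.6 and 13.3 CPM in the other KO RA libraries. The ligase gene Pex10 (log2 difference 0.29) and Pex26, the membrane anchor of PEX6 (-0.63), had edgeR adjusted p-values of 0.798 and 0.667 between KO NO and WT NO. Pex11a and Pex11g, which act in elongation and division of the organelle, gave -0.01 and 0.69 (adjusted p = 0.998 and 0.838), the latter on 5 to 45 counts per library without RA.

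**Figure D2:**
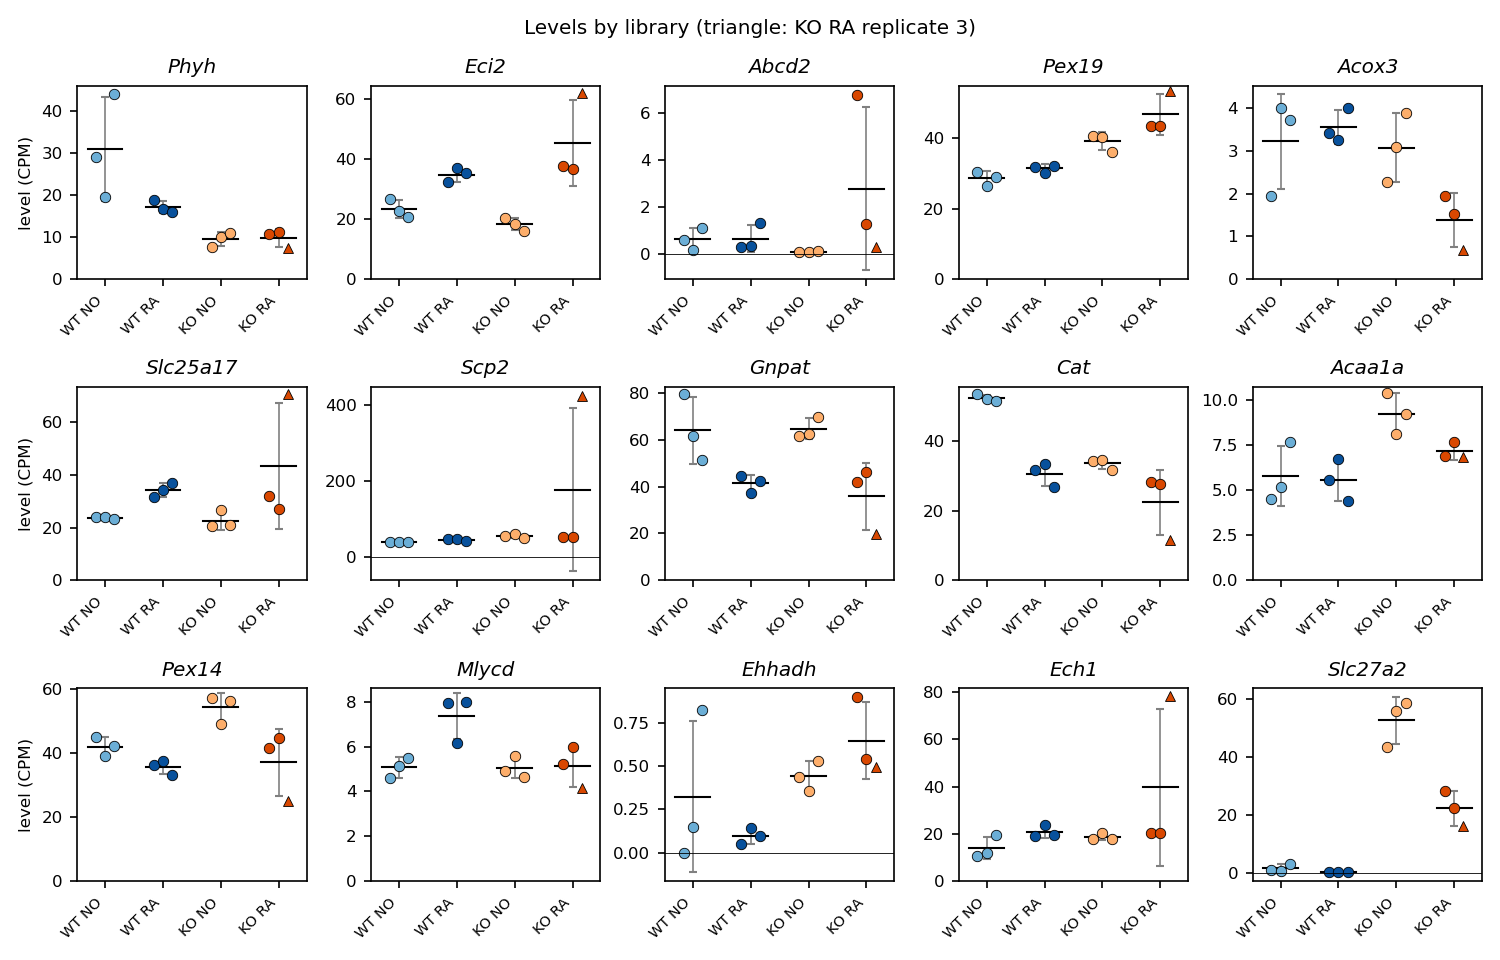
Level in CPM (vertical axes, linear) of 14 peroxisomal genes and of Slc27a2 in the 4 groups (horizontal axes), with a point per library, a black line at the mean and a bar of 1 SD on each side. Phyh and Slc27a2 separate KO NO from WT NO. For Scp2, Ech1, Slc25a17, Pex19 and Eci2 the highest point of all is replicate 3 of KO RA, drawn as a triangle.

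The mean levels of the beta-oxidation enzymes in WT NO ran from 0.0305 CPM for Acox2 to 39.2 CPM for Scp2. Of the 11 tested, edgeR called none between genotypes without RA (all genes 0.788% higher and 0.351% lower), and their median difference was 0.41 on the log2 scale, against -0.02 over all genes. limma-voom called Acaa1a, Crot, Decr2, Ech1, Ehhadh and Scp2 higher (all genes 10.9%) and Eci2 lower (all genes 10.8%) in KO NO, and DESeq2 on all libraries called none of the 11. Acaa1a, the thiolase that ends each round of the straight-chain pathway, had 4.51, 5.17 and 7.69 CPM in WT NO and 10.4, 8.12 and 9.21 CPM in KO NO. The groups did not overlap, and the log2 fold change was 0.67 (SE 0.26, edgeR adjusted p = 0.307). With RA, Acaa1a had 5.58, 6.74 and 4.40 CPM in WT cells and 6.91, 7.67 and 6.84 CPM in KO cells (log2 fold change 0.36, SE 0.26, edgeR adjusted p = 0.496, and 0.38, adjusted p = 0.384, without replicate 3 of KO RA). Its neighbour Acaa1b is a near copy, and Myd88 overlaps it on the opposite strand, so that reads could have been divided among them.

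Scp2 shows how far replicate 3 of KO RA bears on the results. It had 39.5, 38.6 and 39.7 CPM in WT NO, 47.4, 46.4 and 42.9 CPM in WT RA, and 54.1, 59.0 and 49.6 CPM in KO NO. In KO RA it had 52.6 and 51.8 CPM in replicates 1 and 2 and 425 CPM in replicate 3. KO NO lay above WT NO without overlap. With all libraries this difference was 0.47 on the log2 scale with an SE of 0.65 (edgeR adjusted p = 0.897), and without replicate 3 of KO RA Scp2 rose by 0.48 (adjusted p = 0.0159). For KO RA against KO NO it was 1.70 with all libraries (SE 0.66, adjusted p = 0.149) and -0.07 without that library (adjusted p = 0.73).

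Amacr, the racemase that readies branched-chain acyl-CoA for oxidation, and Decr2, a reductase for polyunsaturated chains, lay higher in KO NO than in WT NO as well (log2 fold changes 0.53 and 0.53, edgeR adjusted p = 0.585 and 0.611). Decr2 lies on chromosome 17, whose 794 genes tested had a median log2 fold change of -0.47. Hsd17b4, the D-bifunctional enzyme that serves both branched and very long chains, was even across groups, at 27.9 to 36.1 CPM in all libraries except replicate 3 of KO RA (13.5 CPM). Ehhadh, the L-bifunctional enzyme, had 0, 0.148 and 0.824 CPM in WT NO (0, 4 and 27 counts), 0.0481, 0.145 and 0.0955 CPM in WT RA (1, 3 and 2 counts), 0.439, 0.355 and 0.530 CPM in KO NO, and 0.903, 0.545 and 0.496 CPM in KO RA. WT RA was at the floor, and the ratio of the pooled counts of KO RA (41) to WT RA (6), scaled to the libraries, was 6.92 (95% interval 2.92 to 19.9, counting error only). The edgeR adjusted p was 0.263, or 0.18 without replicate 3 of KO RA. Crot, which turns shortened acyl-CoA into carnitine esters for export, ran from 7.65 to 16.5 CPM in WT NO and from 11.8 to 15.9 CPM in KO NO, with 40.6 CPM in replicate 3 of KO RA. Ehhadh and Crot were highest within WT NO in replicate 3, and without it their differences of KO NO from WT NO went from 0.43 to 2.52 and from 0.26 to 0.68 on the log2 scale (edgeR adjusted p = 0.343 and 0.759).

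Across the 34 genes, 9 lay higher in all KO NO libraries than in all WT NO libraries (26.5%, all genes 15.5%), and 4 lay lower (11.8%, all genes 15.2%). The 9 were Pex3, Pex13, Pex14, Pex19, Acaa1a, Scp2, Amacr, Decr2 and Far1, and the 4 were Phyh, Cat, Eci2 and Abcd2. The median log2 fold change of the 34 was 0.06, beside -0.02 over all genes. With RA, 5 lay higher in KO (14.7%, all genes 9.97%) and 5 lower (14.7%, all genes 10.9%), with a median of 0.31 beside 0.09 over all genes, and without replicate 3 of KO RA the medians were 0.09 and 0.01. Without that library, 2 KO RA libraries stood against 3 of WT RA, and 9 genes lay higher (all genes 25.7%) and 7 lower (all genes 22.2%).

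**Figure D3:**
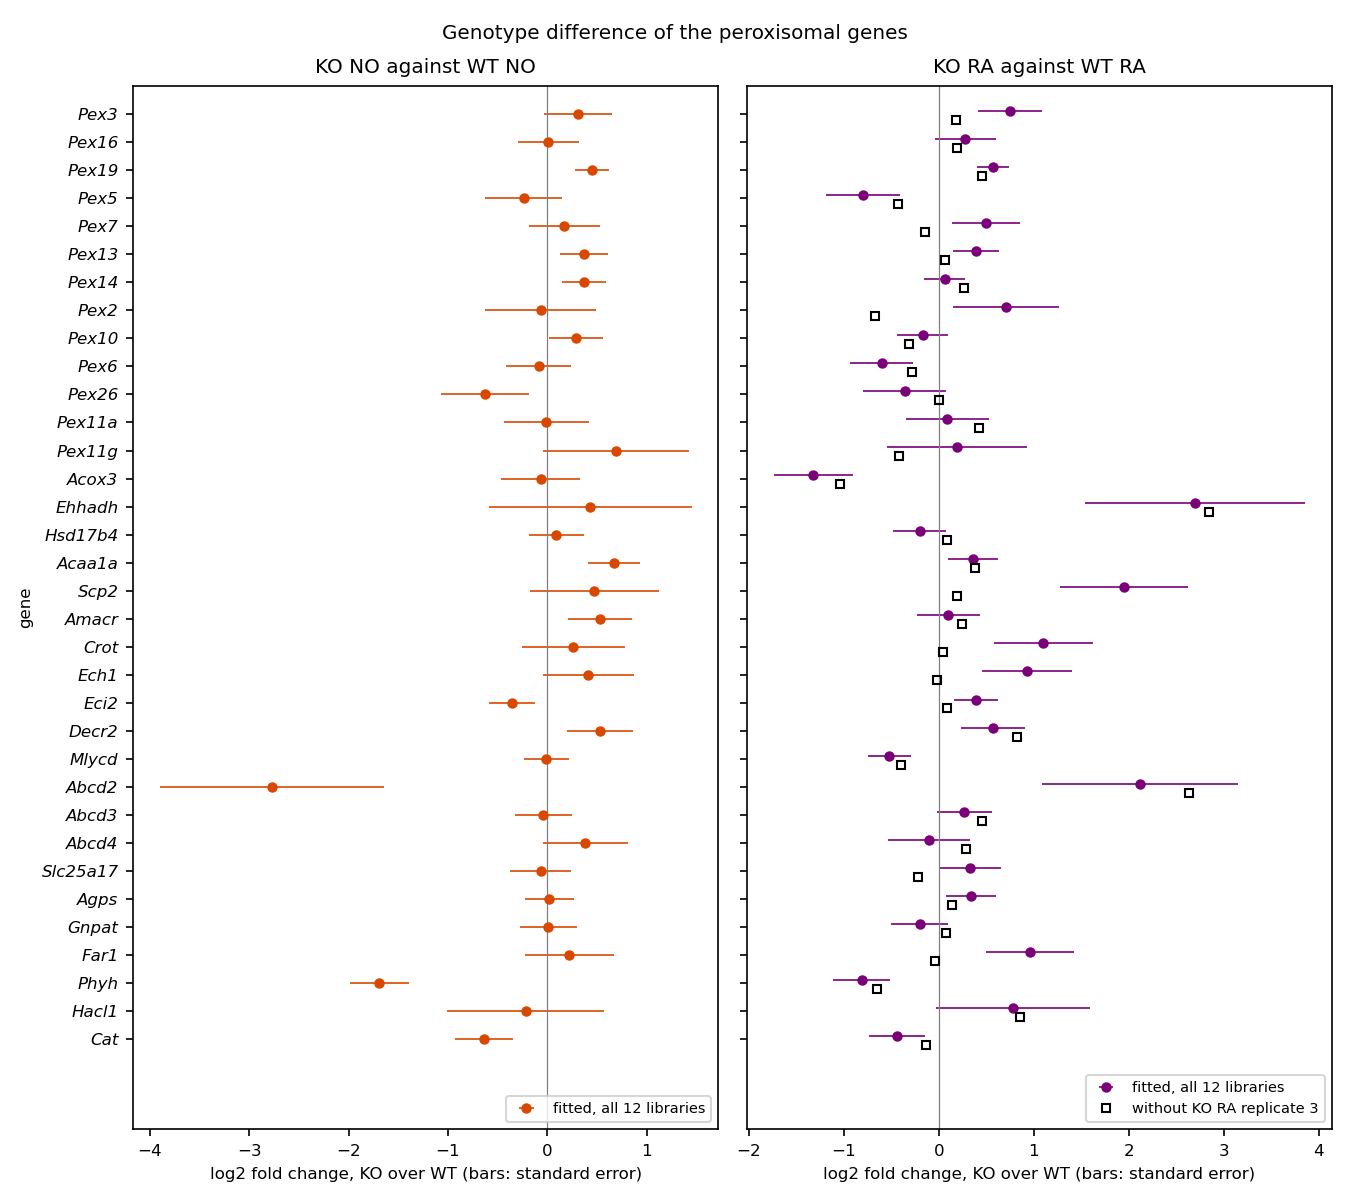
Log2 fold change of KO over WT (horizontal axes) for each of the 34 genes tested (vertical axis), without RA on the left and with RA on the right, as the value fitted to all 12 libraries with its standard error. Open squares give the fit without replicate 3 of KO RA. Phyh lies at -1.69 on the left, and squares and circles part most on the right for Scp2, Pex2, Crot, Ech1 and Far1.

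For KO RA against WT RA edgeR called 0 of the 34 genes in either direction, against 0.885% of all genes higher and 0.358% lower. By an unadjusted p under 0.05, 4 were higher (all genes 10.9%) and 3 lower (all genes 6.67%), and without replicate 3 of KO RA 5 and 3 (all genes 13.0% and 13.4%). DESeq2 on all libraries called 1 higher (Pex19, all genes 5.02%) and 1 lower (Acox3, all genes 2.95%), and limma-voom called 3 higher (all genes 9.79%) and 1 lower (all genes 8.31%). In the fit without replicate 3 of KO RA, edgeR called Pex19 higher (all genes 4.42%) and Pex2 lower (all genes 5.44%). Acox3, an oxidase of branched-chain acyl-CoA, had 3.41, 3.25 and 4.01 CPM in WT RA and 1.94, 1.53 and 0.694 CPM in KO RA. Without RA it had 1.94, 3.99 and 3.72 CPM in WT cells and 2.26, 3.08 and 3.88 CPM in KO cells. KO RA lay below WT RA and, without overlap, below KO NO. Set against WT RA, the difference was -1.32 on the log2 scale (SE 0.42, edgeR adjusted p = 0.153), or -1.04 without replicate 3 (adjusted p = 0.103). Mlycd, which decarboxylates malonyl-CoA, had 7.93, 6.16 and 7.98 CPM in WT RA against 4.58, 5.14 and 5.49 CPM in WT NO. In KO cells it had 4.92, 5.57 and 4.66 CPM without and 5.24, 5.96 and 4.16 CPM with RA. Only WT RA stood above the other groups for Mlycd, with a log2 fold change of -0.52 for KO RA against WT RA (SE 0.23, edgeR adjusted p = 0.276, and -0.40, adjusted p = 0.229, without replicate 3 of KO RA) and 0.54 for WT RA against WT NO (SE 0.23, adjusted p = 0.362).

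The RA comparison within KO cells held the other calls. Eci2, an enoyl-CoA isomerase that moves double bonds of unsaturated chains and works in peroxisomes and mitochondria (ENSMUSG00000021417, chromosome 13, 35161718 to 35211079, minus strand), had 20.3, 18.5 and 16.2 CPM in KO NO and 37.7, 36.9 and 62.2 CPM in KO RA. All KO RA libraries lay above all KO NO libraries. Eci2 rose by 1.31 on the log2 scale (SE 0.24), a 2.48-fold increase, with an edgeR adjusted p of 0.0112. Without replicate 3 of KO RA the rise was 1.01 (adjusted p = 0.00165). Leaving out replicate 1, 2 or 3 of KO NO ended the call (adjusted p = 0.0567, 0.0658 and 0.0776), and it held in the other 9 fits with a library left out. A fit of only the 6 KO libraries in edgeR gave 1.35 (adjusted p = 0.102).

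Eci2 also lay higher with RA in WT cells, with 26.9, 22.7 and 20.9 CPM in WT NO and 32.3, 37.0 and 35.3 CPM in WT RA. The groups did not overlap, and the log2 fold change of 0.57 (SE 0.23) had an edgeR adjusted p of 0.34, or 0.022 without replicate 3 of KO RA. The difference between the KO and the WT response was 0.74 (SE 0.33, edgeR adjusted p = 0.566), or 0.44 without that library (adjusted p = 0.251). Between genotypes without RA, Eci2 was lower in KO NO, with a log2 fold change of -0.36 (SE 0.23, edgeR adjusted p = 0.634). The 648 genes tested on chromosome 13, which also holds Faf2, had the same median, -0.36. In the comparison where Eci2 was called, KO RA against KO NO, the median of chromosome 13 was 0.37, the highest of any chromosome, against 0.11 over all genes. The part of the chromosome in the Eci2 values was not tested.

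Abcd2, a transporter of very long and polyunsaturated acyl-CoA (chromosome 15, 91029881 to 91076310, minus strand), was the other gene called in KO cells with RA. It had 0.0586, 0.0889 and 0.112 CPM in KO NO, which are 2, 3 and 4 counts. In KO RA it had 6.77, 1.26 and 0.297 CPM, from 150, 37 and 3 counts. Replicate 1 stood alone at the top of KO RA, and replicate 3 was at the floor of 3 counts. Scaled to the libraries, the pooled counts of 190 and 9 gave a ratio of 35.5 (95% interval 18.3 to 78.9, counting error only). The fitted log2 fold change was 4.94 (SE 1.20, edgeR adjusted p = 0.0387), and 5.45 without replicate 3 of KO RA (adjusted p = 0.0065). The call held in 5 of the 12 fits with a library left out. It missed the threshold without replicate 1 of KO RA (log2 fold change 3.17, adjusted p = 0.078), without replicate 1, 2 or 3 of KO NO (adjusted p = 0.163, 0.143 and 0.132), without replicate 1 of WT NO (0.0578) and without replicate 1 or 2 of WT RA (0.0591 and 0.0579). In WT cells Abcd2 had 0.599, 0.148 and 1.10 CPM without RA and 0.288, 0.339 and 1.29 CPM with RA, which overlap. KO NO lay below WT NO without overlap, with a log2 difference of -2.77 (SE 1.13, edgeR adjusted p = 0.342). The interaction was 4.90 (SE 1.53, edgeR adjusted p = 0.423), or 5.40 without replicate 3 of KO RA (adjusted p = 0.069).

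The transporter genes Abcd3 and Abcd4 each overlapped between genotypes without RA. Abcd3, the main carrier of branched and bile acid precursors, ran from 6.90 to 12.6 CPM in WT NO and from 9.32 to 10.8 CPM in KO NO (log2 difference -0.04, SE 0.29, edgeR adjusted p = 0.994). Abcd4, a relative known for cobalamin export from lysosomes, ran from 2.50 to 4.40 CPM and from 4.22 to 5.01 CPM (0.38, SE 0.43, adjusted p = 0.856). In KO RA, Abcd3 had 16.2, 16.5 and 10.2 CPM, and limma-voom called it higher than in KO NO (all genes 15.1%), whereas edgeR did not. Abcd4 had 3.84, 4.05 and 0.991 CPM in KO RA and lay below KO NO without overlap (all genes 17.0%).

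Called genes were 2 of 34 higher and 0 lower for KO RA against KO NO, where 3.89% of all genes were called higher and 1.59% lower. By an unadjusted p under 0.05 the counts were 6 higher (all genes 15.8%) and 3 lower (all genes 9.42%), and without replicate 3 of KO RA 4 and 4 (all genes 15.4% and 15.5%). DESeq2 on all libraries called 3 higher (all genes 9.94%) and 2 lower (all genes 6.01%), and limma-voom called 3 higher (all genes 15.1%) and 1 lower (all genes 12.3%). Gnpat was also called, as lower, when replicate 3 of KO RA was left out, and the percentages of all genes called were 8.48% and 7.54%. For groups that did not overlap, 5 genes were higher (all genes 13.2%) and 6 lower (all genes 17.0%), and without that library 9 and 7 (all genes 27.4% and 28.3%).

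For WT RA against WT NO edgeR called none of the 34 genes, against 0.321% of all genes called higher and 0.0848% lower. By an unadjusted p under 0.05, 2 were higher (all genes 6.76%) and 2 lower (all genes 5.79%). DESeq2 called 0 higher (all genes 3.1%) and 1 lower (Cat, all genes 2.5%), and limma-voom 5 higher and 2 lower (all genes 10.8% in each direction). edgeR again called none without replicate 3 of WT NO, with 0.0755% of all genes higher and 0.0174% lower. For 7 genes WT RA lay above WT NO in all libraries (all genes 15.1%) and for 4 it lay below (all genes 14%). Leaving out replicate 3 of KO RA, edgeR called Eci2, Pex2 and Slc25a17 higher and Cat and Gnpat lower in WT RA, where the percentages of all genes called were 5.65% and 5.13%.

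Slc25a17, the carrier of coenzyme A, FAD and NAD across the peroxisome membrane, had 24.0, 24.1 and 23.4 CPM in WT NO and 31.7, 34.5 and 36.8 CPM in WT RA. In KO cells it had 20.5, 26.6 and 20.9 CPM without RA and 31.9, 27.2 and 70.9 CPM with RA. The RA libraries of each genotype lay above its NO libraries. RA gave a log2 fold change of 0.53 in WT cells (SE 0.32, edgeR adjusted p = 0.556, and 0.0283 without replicate 3 of KO RA) and 0.93 in KO cells (SE 0.32, adjusted p = 0.113), or 0.37 in KO cells without that library (adjusted p = 0.106). Ech1, a dienoyl-CoA isomerase, had 10.6, 11.9 and 19.4 CPM in WT NO, 19.2, 23.7 and 19.4 CPM in WT RA and 17.8, 20.3 and 17.9 CPM in KO NO. In KO RA it had 20.5, 20.6 and 78.1 CPM, and the log2 fold change against KO NO went from 1.08 (SE 0.47, edgeR adjusted p = 0.181) to 0.13 (adjusted p = 0.763) without replicate 3. Its difference of KO NO from WT NO went from 0.41 (edgeR adjusted p = 0.855) to 0.73 (adjusted p = 0.688) without replicate 3 of WT NO.

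Gnpat had 79.6, 61.7 and 51.3 CPM in WT NO and 44.5, 37.5 and 42.5 CPM in WT RA. In KO cells it had 61.6, 62.7 and 69.9 CPM without RA and 41.8, 46.3 and 19.7 CPM with RA. In both genotypes every RA library lay below every NO library. The log2 fold changes with RA were -0.63 in WT cells (SE 0.30, edgeR adjusted p = 0.417) and -0.85 in KO cells (SE 0.30, adjusted p = 0.121). With replicate 3 of KO RA left out, Gnpat fell with RA in WT cells (-0.62, adjusted p = 0.0283) and in KO cells (-0.56, adjusted p = 0.0475). A same-strand lncRNA, Gm16163, overlaps exons of Gnpat. Agps and Far1, the other genes of ether lipid synthesis, gave log2 fold changes of -0.27 and 0.19 in WT cells (edgeR adjusted p = 0.755 and 0.931).

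**Figure D4:**
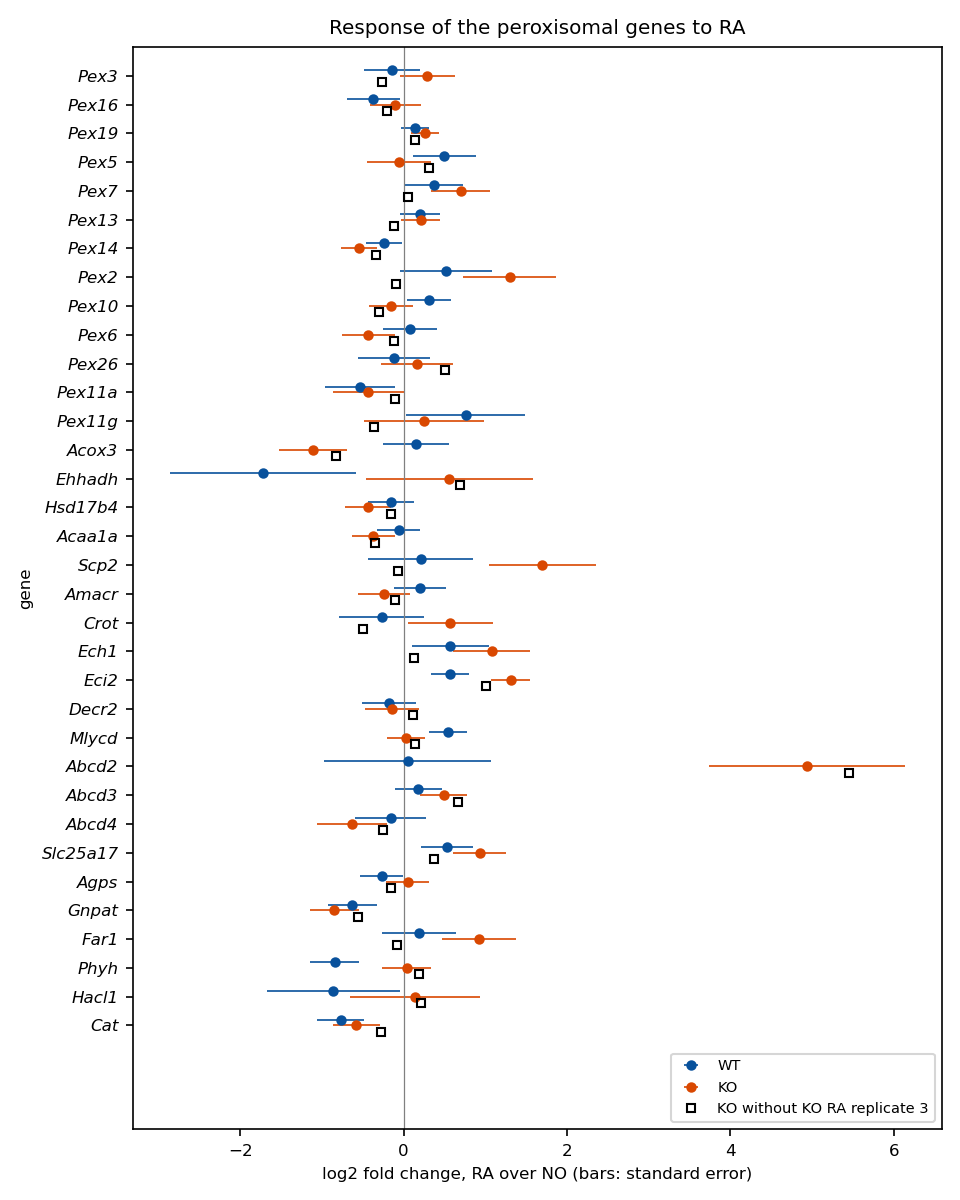
Log2 fold change of RA over NO (horizontal axis) for each of the 34 genes tested (vertical axis) in WT and in KO cells, with standard errors, and in KO cells without replicate 3 of KO RA (open squares). Eci2 lies above 0 in all 3 fits and Gnpat and Cat below, and Abcd2 in KO cells lies at 4.94.

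By edgeR the RA response differed between KO and WT past the threshold in none of the 34 genes and in 0.0% of all genes in either direction. At an unadjusted p under 0.05, 2 of the 34 had a higher response in KO (Abcd2 and Eci2, all genes 5.53%) and 0 a lower (all genes 3.09%), and without replicate 3 of KO RA 4 a higher and 1 a lower (all genes 9.3% and 9.62%). DESeq2 called none of the 34 (all genes 1.3% higher and 0.576% lower), nor did limma-voom (all genes 3.56% and 2.41%). Without replicate 3 of KO RA, 0.802% of all genes were called with a higher and 0.537% with a lower response, and again none of the 34. That library lay more than 2-fold above both other KO RA libraries for 9 of the 34 genes and more than 2-fold below both for 10 (55.9% together, all genes 51.2%), from 0.074 times their mean for Abcd2 (3 counts) to 8.15 times for Scp2.

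Among other genes of the organelle, Slc27a2 and Ephx2 rose in KO cells, with fold changes between genotypes larger than for any of the 35. Slc27a2, an acyl-CoA synthetase for very long and branched chains that activates phytanic acid before PHYH acts on it (chromosome 2, 126394327 to 126430166, plus strand), had 0.916, 0.407 and 3.02 CPM in WT NO and 43.5, 56.1 and 58.7 CPM in KO NO. With RA it had 0.337, 0.339 and 0.239 CPM in WT cells and 28.2, 22.3 and 16.3 CPM in KO cells. Every KO library lay above every WT library. Slc27a2 rose by 5.17 on the log2 scale without RA (SE 0.60, edgeR adjusted p = 0.00338) and by 6.17 with RA (SE 0.68, adjusted p = 0.00234), and both calls held in all 12 fits with a library left out. Ephx2, a hydrolase of fatty acid epoxides, had 1.51, 1.07 and 0.549 CPM in WT NO and 27.7, 22.2 and 21.2 CPM in KO NO, and rose by 4.50 (SE 0.52, edgeR adjusted p = 0.00338), a call that held in all 12 fits with a library left out. With RA it had 0.817, 0.630 and 0.430 CPM in WT cells and 10.6, 13.5 and 3.57 CPM in KO cells, and rose by 3.88 (SE 0.53, adjusted p = 0.00851), a call that missed the threshold without replicate 1, 2 or 3 of WT RA (0.0624, 0.0600 and 0.0699). The rises with RA were, without replicate 3 of KO RA, 6.35 for Slc27a2 and 4.25 for Ephx2 (edgeR adjusted p = 0.000764 and 0.000347). Acot6, an acyl-CoA thioesterase, had 0 counts in every WT NO library and 0.498, 0.859 and 0.530 CPM in KO NO. It was at least 6.14-fold higher in KO NO, against the floor of 3 counts per library (edgeR adjusted p = 0.0275). Acot6 had at most 1 count in any WT library and passed the filter on low counts through KO libraries alone. Its adjusted p is therefore a description and no support for a rise. The call of Acot6 held in 2 of the 12 fits with a library left out, without replicate 3 of KO RA (0.0146) or replicate 2 of WT RA (0.0471). The highest adjusted p of the other 10 was 0.13.

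Of 34 other peroxisomal enzymes 24 were tested by edgeR on all 12 libraries. Only Slc27a2, Ephx2 and Acot6 were called in KO NO and only Slc27a2 and Ephx2 in KO RA, against the percentages of all genes given above. Further lists held 21 other peroxins, fission factors and membrane proteins, 8 pexophagy and p97 extraction genes and 17 mitochondrial fatty acid oxidation genes. For KO NO against WT NO, edgeR called none of these (all genes 0.788% up and 0.351% down). With an unadjusted p under 0.05, these lists had 1, 0 and 0 genes up (all genes 5.81%). They had 2, 0 and 2 genes down (all genes 6.37%). Their median log2 fold changes were 0.14, 0.03 and 0.01, beside -0.02 over all genes. Of 9 genes of PPAR, RXR and their coactivators 6 were tested in this comparison, and none was called. In this list 1 gene was down with an unadjusted p under 0.05 (all genes 6.37%). The median of the list was -0.33, beside -0.02 over all genes. Ppara, the receptor that drives peroxisomal genes in liver, had at most 0.892 CPM in any library.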

How the data were processed

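RNA of WT and Faf2 KO NE-4C cells was sequenced as mRNA libraries. The authors ran nf-core/rnaseq at its defaults, with STAR for alignment and Salmon for quantification on GRCm39, and deposited estimated counts per gene (expected counts scaled from TPM, which corrects them for gene length) for 12 libraries. In 3851 genes above 0 in 1 library, this value fell with exonic length (Spearman correlation -0.685). Strand use is not given in the sources used here, so reads of genes that overlap on opposite strands may be divided. The authors compared groups with DESeq2. Replicates are separate passages of the same lines, so p-values measure the spread between passages.

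Estimated counts were rounded to whole numbers and tested in R 4.3.3 with edgeR 4.0.16 (filterByExpr over the 4 groups, which kept 16502 genes, TMM scaling, robust quasi-likelihood, 1 coefficient per group, all 12 libraries, no replicate block). Calls required an adjusted p (Benjamini-Hochberg, over all genes tested) under 0.05, with no limit on fold. The tests, the intervals and the comparison of replicates with counting noise treat these scaled values as counts. The floor was 3 counts per library (0.0838 to 0.297 CPM), and intervals cover counting error only. DESeq2 1.42.0, limma 3.58.1 (voom with sample weights), other filters and size factors, only the groups compared, the replicate number as a block, and each library left out were alternatives. Scripts were tested on simulated data. Tables and plots were made with Python 3.11.15, pandas 2.3.3 and matplotlib 3.10.9, positions come from GENCODE on GRCm39, and promoters from RefSeq.

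The 35 genes, the gene lists and the tests were chosen with earlier results of these data known. Values in every library were printed for the genes called in any comparison and then, up to 14, for those with the smallest unadjusted p. Of the other lists, called genes were named, with Faf2; other genes that the rule names are not reported here. Genes at an extreme, or singled out beyond this, were chosen after their values were seen.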

Additional observations from a re-analysis of the deposited data

How the results depend on the processing

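Counts below are of the 34 genes called, with the share of all genes tested in parentheses. For KO NO against WT NO, limma-voom called 11 higher (10.9%) and 3 lower (10.8%) with a median log2 fold change of 0.18, edgeR on only these groups called 2 lower (2.05%), and DESeq2 on only these groups 2 higher (6.58%) and 2 lower (6.63%). For KO RA against WT RA, DESeq2 on all libraries called 1 higher (5.02%) and 1 lower (2.95%) with a median of 0.40, DESeq2's size factors gave a median of 0.40, limma-voom called 3 higher (9.79%) and 1 lower (8.31%) with a median of 0.10, and DESeq2 on only these groups called 1 lower (1.43%). For WT RA against WT NO, DESeq2 on all libraries and edgeR on only these groups each called 1 lower (2.5% and 1.56%), limma-voom 5 higher and 2 lower (10.8% each) with a median of 0.17, DESeq2 on only these groups 3 higher (6.81%) and 3 lower (6.01%), and genes with at least 10 counts in every library had a median of 0.12. For KO RA against KO NO, genes with at least 10 counts in every library gave 1 higher (4.1%), where Abcd2 was not tested, edgeR on only these groups 0 (1.16%) and DESeq2 on only these groups 1 (6.92%) with a median of 0.15. DESeq2 on all libraries called 2 lower (6.01%) with a median of 0.18 and limma-voom 1 lower (12.3%) with a median of -0.08, and the medians were 0.17 with DESeq2's size factors and 0.04 with no filter. The interaction's median was -0.13 under limma-voom.

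With the replicate number as a block, edgeR called 0 genes lower in KO NO (Phyh -1.67, adjusted p = 0.0776, all genes 0.0364%). In KO RA against KO NO it called 1 higher, Eci2 (all genes 2.08%), and Abcd2 missed the threshold (4.82, adjusted p = 0.0737). No shared deviation of same-numbered libraries was seen, with correlations of deviations from -0.167 to 0.0677. With 3 libraries per group this cannot show whether same-numbered libraries were collected together, and the labels do not say.

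Over the 12 fits with a library left out, the numbers called higher were 0 to 2 (KO NO against WT NO), 0 to 1 (KO RA against WT RA), 0 to 3 (WT RA against WT NO), 0 to 3 (KO RA against KO NO) and 0 to 0 (interaction), and those called lower were 0 to 2, 0 to 1, 0 to 2, 0 to 1 and 0 to 0. The medians ran from 0.05 to 0.18, 0.09 to 0.44, -0.05 to 0.19, -0.09 to 0.15 and -0.12 to 0.23. For KO RA against KO NO, Scp2 ran from -0.07 (replicate 3 of KO RA left out) to 2.23 (replicate 2 of KO RA left out). For single genes a tally was kept of some results only, not of every gene in every comparison. Under the other settings 214 of these kept their direction and their side of the threshold, 34 passed it newly and 5 no longer did. With a library left out the numbers were 378, 11 and 30, and 1 reversed (Scp2, above). Signs turned outside this tally too. Without replicate 3 of KO RA, the genes with a positive log2 fold change went from 20 to 14 of 34 for KO RA against KO NO. For the interaction they went from 22 to 14, and Pex2 turned in KO RA against WT RA (above). The cause of these differences was not tested.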
